A study of Mus musculus with 6 samples.

Results

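The 83 genes described here encode proteins of the cytosolic ribosome, the machine that translates messenger RNA outside mitochondria. They were measured in cultures labelled as primary hepatic stellate cells, the vitamin A-storing pericytes of the liver. In these cultures endothelial markers had a higher summed level than stellate markers, as given below. They were chosen by symbol, as Rpl or Rps followed by a number and at most a short suffix, or as Rpsa, Rplp0, Rplp1 or Rplp2, with at least 60 counts summed over all 6 libraries. Of 40879 gene symbols in the files, 87 matched this pattern and 83 reached the minimum, 33 of the small and 50 of the large subunit. Pseudogenes marked with -ps (23 symbols, 12 of them with a count) and the Rps6k kinases were left out. The 2 members nearest the minimum were Rpl6l with 94 and Rps4l with 2666 counts, and the 4 matching symbols under it were Rpl32l with 25, Rpl39l with 9, and Rpl10l and Rpl3l with 3 counts each.

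Cells came from male wild-type mice and were kept for 24 h with vehicle (3 libraries) or with APB-R3 (3 libraries), an engineered IL-18 binding protein, that is, a form of the secreted decoy that holds IL-18 away from its receptor. The amount of APB-R3 reads 150 µg/ml in the series text and 150 µg/kg in the protocol of the samples, so its unit is not settled here, and no age or strain of the mice is stated in the sources used here. The series title poses the question of a weaker activation of stellate cells under the treatment. The labels do not say that replicates are separate animals or cultures, and p-values then measure only the spread between these samples, possibly a technical one.

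A ribosome has a small subunit, which reads the messenger RNA, and a large subunit, which joins amino acids, and most of their proteins are present in a single copy per ribosome. Messenger RNAs of ribosomal proteins begin with a cytosine and a run of pyrimidines, the 5' terminal oligopyrimidine (TOP) motif. Through this motif their translation is tied to mTORC1, the kinase complex that senses nutrients and growth factors, and to the binding protein LARP1. Ribosome production goes with growth and division, and stellate cells that become activated turn into dividing, matrix-producing cells.

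Libraries held between 8323809 (APB-R3 replicate 1) and 10792531 counts (APB-R3 replicate 2). Counts come from the 3' end of transcripts, so a gene's count does not grow with its length, and levels are given as CPM, counts scaled to a common library size with TMM factors. The summed level of 12 endothelial markers was 6901 to 7544 CPM with vehicle and 6620 to 7268 CPM with APB-R3, above the 832 to 925 and 804 to 843 CPM of 16 stellate markers. Of the defining stellate genes, Lrat had means of 2.04 CPM with vehicle and 1.34 CPM with APB-R3, and Des 5.64 and 3.79 CPM. The activation gene Acta2 had 131 and 97.3 CPM and the collagen gene Col1a1 142 and 137 CPM. The groups overlapped for Lrat, Des and Col1a1 but not for Acta2, beside 4.38% of all genes that were lower without overlap. The adjusted p was 0.9998 for each in edgeR's test. The sum of 12 macrophage markers was 402 to 594 and 473 to 669 CPM, and that of 10 hepatocyte markers 8.92 to 91.5 and 6.53 to 14.9 CPM. The neutrophil genes Ly6g and Cxcr2 and the lymphocyte genes Cd3e and Cd79a had no count. All values below are therefore those of mixed cultures with more endothelial than stellate marker RNA, and not of stellate cells alone. Fewer cells of a type and less RNA per cell cannot be told apart in them.

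APB-R3 replicate 1 stood apart from the other 5 libraries. Besides the lowest total it had the lowest share of mitochondrial ribosomal RNA, 2.09% of counts against 2.39% to 2.76%, and the highest share of other mitochondrial transcripts, 2.93% against 2.34% to 2.75%. The inflammatory cytokine gene Il1b had 36.8 CPM in it and 0.475 to 2.25 CPM elsewhere, and the chemokine gene Cxcl2 262 CPM against 38.9 to 59.7 CPM. Where the log2 fold change of a member is given, it is given with and without this library, and the part of these features in it was not tested.

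The starts of members at either end of the fold-change order (Rpl35a, Rpl13a, Rpl41, Rps28), of 4 of the most abundant members (Rps26, Rps12, Rps24, Rps3) and of Rpl15, one of the least abundant, are shown because the TOP motif is the sequence feature these genes are known to share. Each line gives 30 bases of the gene's strand from the RefSeq promoter table for GRCm38.p6, which is not the build of the count files (GRCm39), with 10 bases before the annotated start and 20 from the start on. Capitals mark a run of pyrimidines counted from a C within 10 bases of the annotated start, with at least 5 further C or T. In Rps26 and Rps24 a T stands directly before the capitals. The windows lie at chr16:33056472-33056501 (plus strand) for Rpl35a, chr7:45128726-45128755 (minus) for Rpl13a, chr14:18270967-18270996 (minus) for Rpl15, chr10:128626487-128626516 (minus) for Rps26, chr10:23787190-23787219 (minus) for Rps12 and chr14:24490668-24490697 (plus) for Rps24. Those of Rpl41, Rps28 and Rps3, in which the search found no such run, lie at chr10:128549149-128549178, chr17:33824543-33824572 and chr7:99483690-99483719, all on the minus strand. For Rpl35a and Rps24 the start with the run is shown, and their other annotated starts, not shown, had no such run. Rack1, at chr11:48800350-48800379 (plus), and Fau, at chr19:6057937-6057966 (plus), encode ribosomal proteins outside the symbol pattern.
Rpl35a: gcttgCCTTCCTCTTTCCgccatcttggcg
Rpl13a: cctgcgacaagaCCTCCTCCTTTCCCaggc
Rpl15: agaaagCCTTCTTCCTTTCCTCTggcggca
Rps26: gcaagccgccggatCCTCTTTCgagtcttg
Rps12: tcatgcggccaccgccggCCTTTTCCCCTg
Rps24: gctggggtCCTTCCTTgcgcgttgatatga
Rpl41: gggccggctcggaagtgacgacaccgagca
Rps28: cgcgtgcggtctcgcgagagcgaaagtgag
Rps3: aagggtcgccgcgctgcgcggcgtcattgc
Rack1: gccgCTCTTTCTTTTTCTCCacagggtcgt
Fau: gcccccaCTTCTTCCTCTTTCTTgactcca

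Of the 83 members, 61 had an entry in the promoter table, and 33 of these (54.1%) had such a start at 1 or more annotated starts. The same search, on the gene's strand alone, found it in 21.9% of the 27025 genes of the table (19.2% of its 32851 sequences) and in 23.7% of the 9871 other tested genes with an entry. A gene without a match has no such run in this window of the annotated start, and nothing more is read from it. The median level was 564 CPM over the members with the run and 637 CPM over those without it.

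Levels of the members spanned a wide range, as the plot of every member by library shows. The mean over the 6 libraries was highest for Rps14, a small-subunit protein, at 3657 CPM, and the median member had 624 CPM. Without Rpl6l, at 1.53 CPM, the highest member was 82.6-fold above the lowest, and 20 members exceeded 1000 CPM. The 3 most abundant members held 14.0% of all member counts and the 10 most abundant 33.6%.

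**Figure D1:**
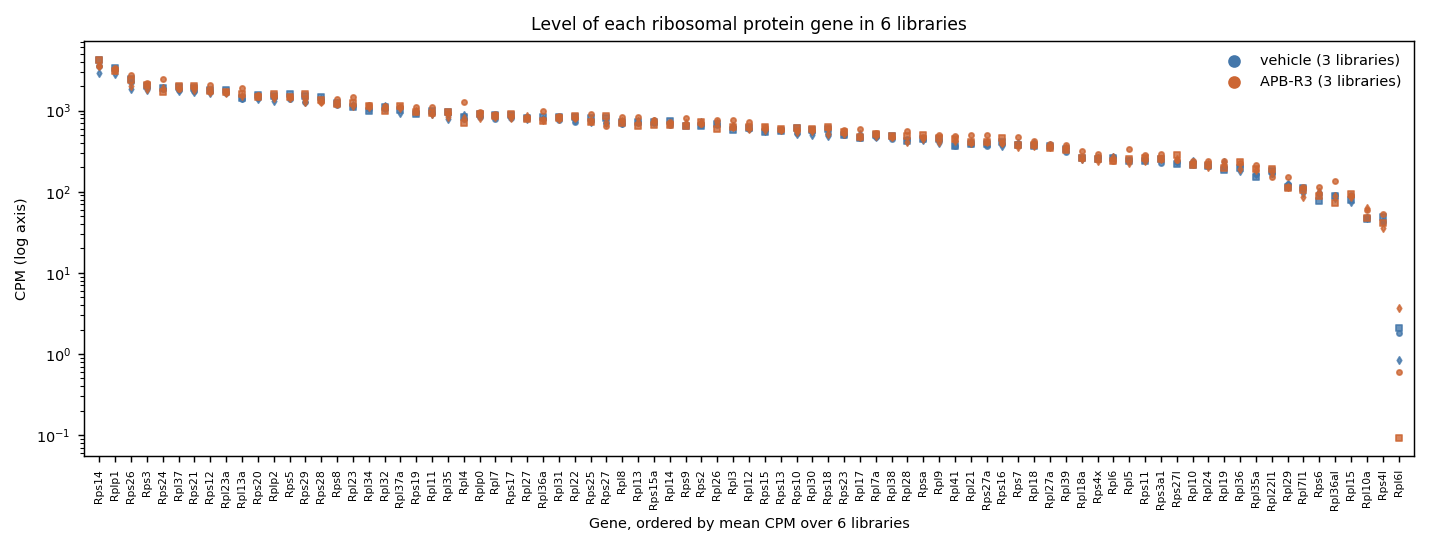
CPM of each of the 83 members (log axis) in 3 vehicle (blue) and 3 APB-R3 (orange) libraries, ordered by mean CPM. Circles, squares and diamonds stand for replicates 1, 2 and 3, and Rps14 at 3657 CPM is on the far left and Rpl6l at 1.53 CPM on the far right.

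Among the most abundant members, Rps14 had 3555, 4171 and 2875 CPM with vehicle (replicates 1 to 3, the order used throughout) and 3569, 4248 and 3522 CPM with APB-R3. Rplp1, an acidic protein of the stalk that recruits elongation factors, had 3197, 3320.2 and 2822 CPM with vehicle and 3304, 3112 and 3175 CPM with APB-R3. These genes were next to each other in the order of levels, and their libraries overlapped. The mRNA-entry protein gene Rps3 had 1934, 2012 and 1817 CPM with vehicle and 2214, 2053 and 1863 CPM with APB-R3. Rps26, whose protein sits near the mRNA exit channel, had 2266, 2468 and 1856 CPM with vehicle and 2744, 2416 and 1990.3 CPM with APB-R3. The other 4 of the 8 most abundant members, Rps24, Rpl37, Rps21 and Rps12, had means between 1785 and 1949 CPM, closer to each other than the libraries of any one of them.

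At the low end stood Rpl6l, a copy of Rpl6, with 1.82, 2.11 and 0.854 CPM with vehicle and 0.605, 0.0934 and 3.71 CPM with APB-R3. That order is no pattern of treatment, since both the lowest and the highest library were APB-R3 libraries. Rps4l, a copy of Rps4x, had a mean of 44.3 CPM, Rpl10a, a protein of the L1 stalk through which used transfer RNA leaves, 52.0 CPM, and Rpl15, a core protein of the large subunit, 85.6 CPM. A level here is a count of 3' ends and not of protein.

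Members varied between libraries about as much as all tested genes of at least 50 CPM, a comparison not matched for level. The coefficient of variation over the 6 libraries had a median of 7.50% for the 81 members with at least 50 CPM and of 8.11% for the 3830 tested genes at or above that level. It was 2.25% for Rps13, which had 586, 560.1 and 577 CPM with vehicle and 576, 599 and 576 CPM with APB-R3, the narrowest range of the members and named after its values were seen. It was 22.5% for Rpl36al and 22.4% for Rpl4, the widest after Rpl6l at 85.4%.

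Together, the members took 6.26%, 6.50% and 6.16% of all counts in the vehicle libraries (replicates 1 to 3) and 7.01%, 6.54% and 6.39% in the APB-R3 libraries. The groups overlapped: vehicle replicate 2 lay above APB-R3 replicate 3. The means were 6.30% ± 0.173 and 6.65% ± 0.323 (SD, n = 3 each). The difference of 0.345 percentage points was 0.163 points without APB-R3 replicate 1. The small subunit genes took 3.06% ± 0.140 of counts in vehicle and 3.23% ± 0.150 in APB-R3, and the large subunit genes 3.24% ± 0.0354 and 3.42% ± 0.190 (SD, n = 3 each).

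On the log2 scale, each member was set against its own mean over the 6 libraries. The median deviation over the 83 members was −0.049, −0.0095 and −0.036 in the vehicle libraries and 0.13, −0.0072 and −0.031 in the APB-R3 libraries, in the order of their replicate numbers. APB-R3 replicate 1 lay farthest off 0, with 72 of 83 members above their own mean. In vehicle replicate 1 only 14 members were above it, with a median closer to 0, and in the other 4 libraries 26 to 41 members. Of the 6 libraries, APB-R3 replicate 1 was the highest for 51 members, followed by APB-R3 replicate 2 for 20. The median of APB-R3 replicate 1 was 0.13 over the small subunit genes and 0.14 over the large subunit genes, so both subunits shared the shift.

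**Figure D2:**
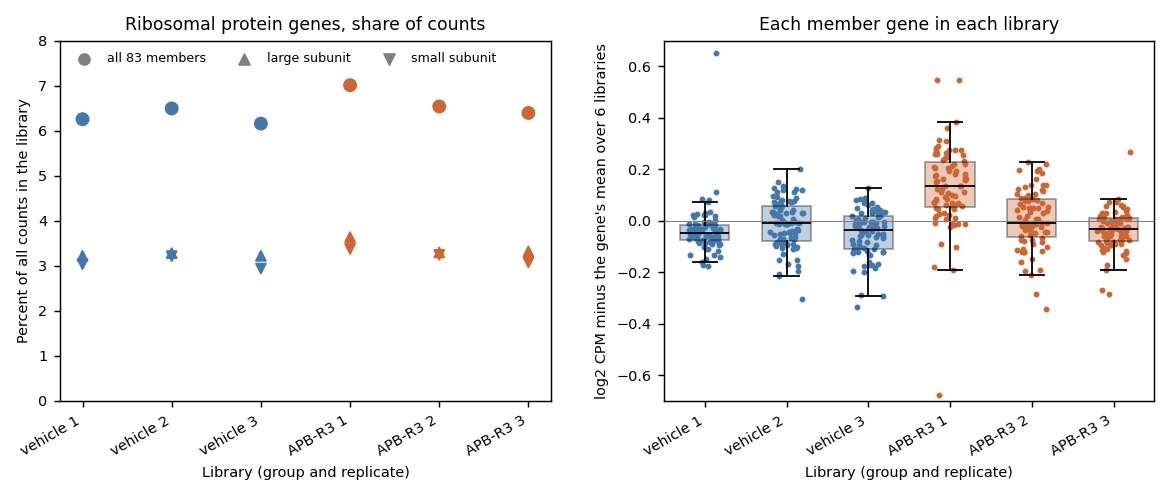
Left, percent of all counts in the 83 members (circles), the large (upward triangles) and the small subunit genes (downward triangles) of each library. Right, log2 CPM of each member minus its mean over 6 libraries, with boxes for quartiles and 3 points outside the plotted range; APB-R3 replicate 1 has the highest share, 7.01%, and the highest median, 0.13.

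The first principal component of the 82 members with at least 30 CPM held 55.3% of their variance. APB-R3 replicate 1 lay at 1.75 on it and the other 5 libraries between −0.39 and −0.25. The second component, with 23.5%, ran from APB-R3 replicate 2 at −0.80 to vehicle replicate 3 at 0.76 and held vehicle and APB-R3 libraries on both sides of 0. Neither component separated the treatment groups.

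In the shift of APB-R3 replicate 1 the members were uneven. Rpl4, a large-subunit protein that lines the exit tunnel, had 1264 CPM there, against 781, 839.9 and 889.9 CPM with vehicle and 709.8 and 799 CPM in the other APB-R3 libraries. Rpl36al, a copy of the large-subunit gene Rpl36a, had 134 CPM there, against 90.7, 88.0 and 84.7 CPM with vehicle and 72.0 and 89.8 CPM in the others. Rps24, a small-subunit gene mutated in Diamond-Blackfan anaemia, had 2485 CPM there, against 1834, 1918 and 1904 CPM with vehicle and 1672 and 1881 CPM in the others. In all 3 genes, APB-R3 replicate 2 was the lowest of the 6 libraries. Rps27, by contrast, had its lowest level, 640.4 CPM, in APB-R3 replicate 1 and its highest, 852 CPM, in APB-R3 replicate 2. Rpl4 and Rps27 were picked after these values were seen. The log2 fold change of Rpl4 (APB-R3 over vehicle) was 0.14 (SE 0.14), or −0.15 without APB-R3 replicate 1.

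**Figure D3:**
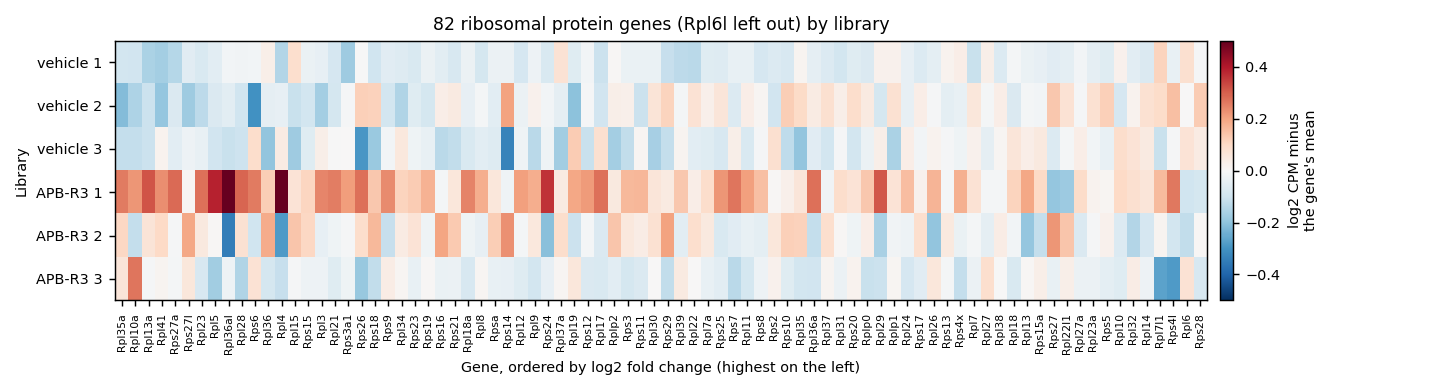
Log2 CPM minus the gene's mean over 6 libraries (colour) for 82 members, Rpl6l left out, in each library (rows), with genes ordered by log2 fold change from the highest on the left. The row of APB-R3 replicate 1 is red for most genes, and the other 5 rows are mixed.

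With APB-R3 set against vehicle, no ribosomal protein gene passed the test. In edgeR's quasi-likelihood test with Benjamini-Hochberg adjustment over 12776 genes, 0 of 83 members were called, beside 0% of all genes tested, and the smallest adjusted p of a member was 0.9998. At an unadjusted p under 0.05, 3 members were higher in APB-R3 (3.61%), beside 1.75% of all genes, and 0 were lower, beside 1.57%. All 3 APB-R3 libraries lay above all 3 vehicle libraries for 6 members (7.23%), beside 4.43% of all genes, and below them for 0, beside 4.38%. The 6 were Rpl13a, Rpl35a, Rps15, Rps19, Rps27a and Rps27l.

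The log2 fold changes of the members were small and mostly above 0. They ran from −0.11 (Rps28) to 0.29 (Rpl35a) with a median of 0.086, beside 0.0032 over all genes tested. They were positive for 71 of 83 members (85.5%), beside 50.7% of all genes, with 30 of 33 in the small subunit (median 0.089) and 41 of 50 in the large subunit (median 0.070). Without APB-R3 replicate 1 these were 23 of 33 (median 0.030) and 29 of 50 (median 0.015). Over all members, the median without that library was 0.024 and 52 of 83 were positive (62.7%), beside −0.0025 and 49.4% of the same genes. Members share their libraries, so these counts describe 6 samples and are not 83 separate measurements. The median 95% interval of a member, not adjusted for the number of genes, reached 0.19 to either side of its log2 fold change. The adjusted test asks for more than this, and Rpl35a at 0.29 did not pass it.

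**Figure D4:**
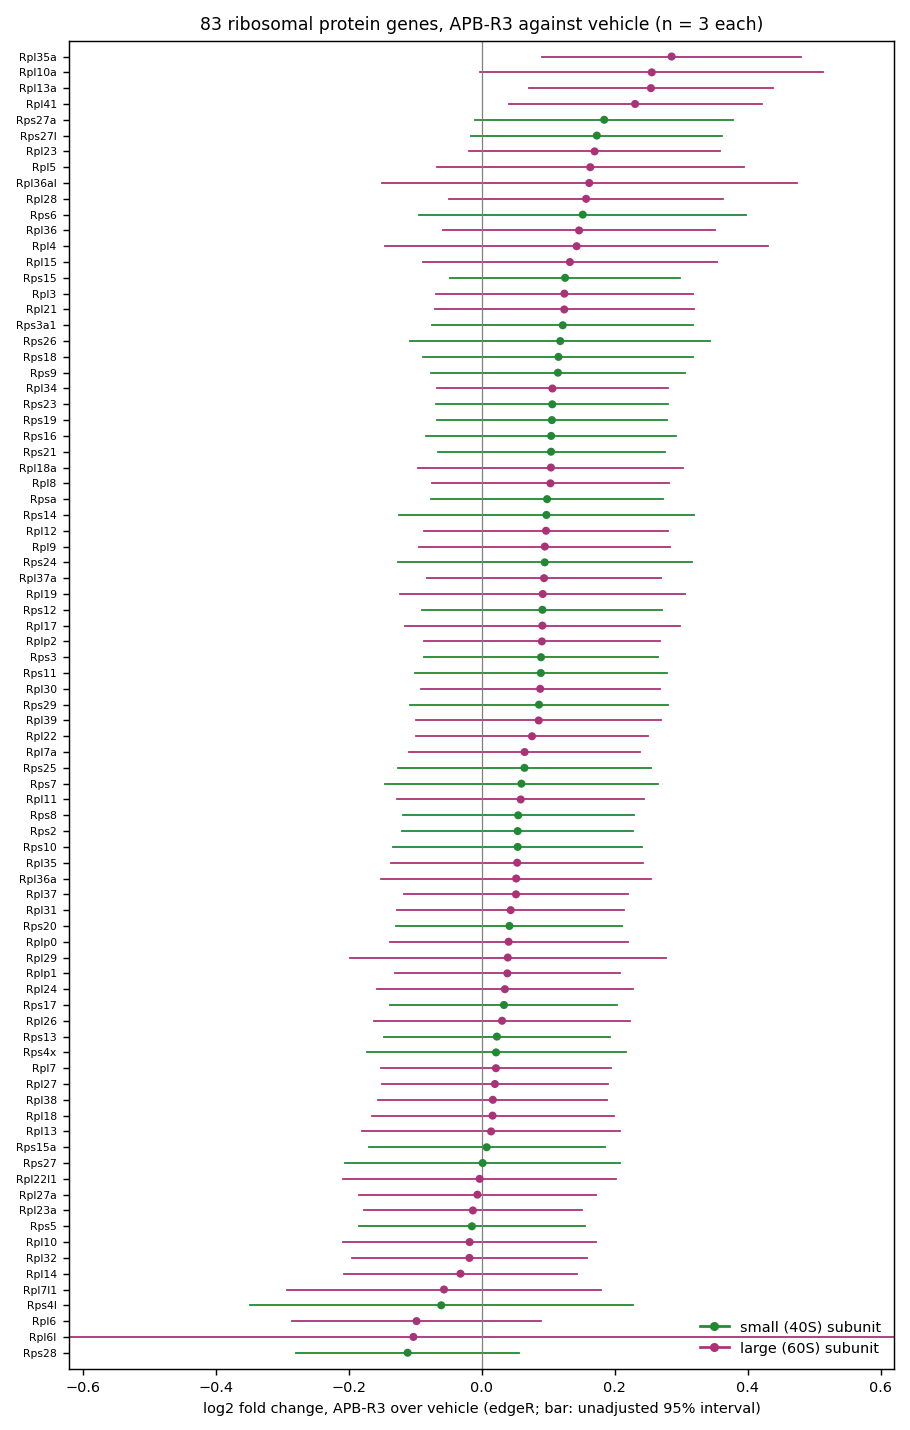
Log2 fold change (APB-R3 over vehicle, edgeR, n = 3 each) of the 83 members with unadjusted 95% intervals, small subunit genes in green and large subunit genes in purple. Intervals of 3 members lie above 0 and that of Rpl6l runs past both ends of the axis.

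Rpl35a, a large-subunit gene mutated in Diamond-Blackfan anaemia, had the highest fold change. It had 167, 153 and 164 CPM with vehicle and 213, 191 and 186 CPM with APB-R3, and the groups did not overlap. Its log2 fold change was 0.29 (SE 0.094, 95% interval 0.091 to 0.48, unadjusted p = 0.0061) and was 0.22 without APB-R3 replicate 1. Its adjusted p of 0.9998 did not pass.

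Rpl13a, whose protein can leave the ribosome to repress inflammatory transcripts in myeloid cells, had 1376, 1427 and 1426 CPM with vehicle and 1909, 1606 and 1530.2 CPM with APB-R3. Its 3 APB-R3 libraries lay above the vehicle libraries, and the vehicle libraries were close to each other. The log2 fold change was 0.25 (SE 0.088, unadjusted p = 0.0088) and was 0.15 without APB-R3 replicate 1. Rpl41, which encodes a very short basic peptide of the large subunit, had 369, 364 and 422 CPM with vehicle and 489, 446 and 420.0 CPM with APB-R3. Here vehicle replicate 3 lay above APB-R3 replicate 3. The log2 fold change was 0.23 (SE 0.092, unadjusted p = 0.020), or 0.17 without APB-R3 replicate 1.

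Rpl10a, with the second highest fold change, and Rps27a, with the fifth, had unadjusted p-values of 0.052 and 0.062 in edgeR's test. Rpl10a had 48.3, 46.4 and 47.5 CPM with vehicle and 60.2, 47.4 and 62.2 CPM with APB-R3, so that replicate 2 of APB-R3 lay among the vehicle libraries. Its log2 fold change was 0.26 (SE 0.12), or 0.21 without APB-R3 replicate 1. Rps27a, which encodes ubiquitin fused to a small-subunit protein, had 369, 388 and 393 CPM with vehicle and 496, 406 and 405 CPM with APB-R3. Its groups did not overlap, yet APB-R3 replicates 2 and 3 lay just above the vehicle libraries. Its log2 fold change was 0.18 (SE 0.093) and was 0.078 without APB-R3 replicate 1.

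Over the 6 libraries, 12 of 83 members had a negative log2 fold change. More had one without APB-R3 replicate 1, where 52 of 83 were positive. Rps28, a small-subunit gene, had 1335, 1463 and 1379 CPM with vehicle and 1259, 1343 and 1265 CPM with APB-R3, for a log2 fold change of −0.11 (SE 0.081). The highest APB-R3 library lay above the lowest vehicle library. Rpl6, a large-subunit gene, had 271, 257 and 269 CPM with vehicle and 239, 236 and 269.8 CPM with APB-R3, for a log2 fold change of −0.098 (SE 0.090). In both genes the unadjusted intervals included 0, from −0.28 to 0.056 for Rps28 and from −0.28 to 0.088 for Rpl6. Without APB-R3 replicate 1 the values were −0.097 and −0.075.

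The most abundant members had fold changes near the members' median. The log2 fold change was 0.097 (SE 0.11) for Rps14, 0.038 (SE 0.082) for Rplp1, 0.12 (SE 0.11) for Rps26 and 0.089 (SE 0.085) for Rps3. It was 0.095 (SE 0.11) for Rps24, 0.051 (SE 0.081) for Rpl37, 0.10 (SE 0.082) for Rps21 and 0.091 (SE 0.087) for Rps12. Single libraries set several of these signs. The value was −0.031 for Rps14 and −0.028 for Rplp1 without vehicle replicate 3, and −0.087 for Rps24 and −0.0016 for Rps12 without APB-R3 replicate 1. Without that library it was 0.0019 for Rps26, 0.025 for Rps3 and 0.012 for Rplp1, and 0.13 for Rps14, 0.070 for Rpl37 and 0.10 for Rps21. Without vehicle replicate 3, Rps26 had 0.010.

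Further members were looked up for their roles, with values already seen. The stalk genes Rplp0 and Rplp2, partners of Rplp1, had log2 fold changes of 0.040 (SE 0.086) and 0.090 (SE 0.085), and −0.022 and 0.088 without APB-R3 replicate 1. Rpl5 and Rpl11, whose proteins bind 5S ribosomal RNA and can hold the p53 regulator MDM2, had 0.16 (SE 0.11) and 0.059 (SE 0.089), and −0.011 and −0.039 without that library. Rpl5 had 245, 242 and 238 CPM with vehicle and 331, 255 and 225 CPM with APB-R3, so that the highest and the lowest library were both APB-R3. Rps6, the small-subunit protein that S6 kinases phosphorylate downstream of mTORC1, had 93.8, 76.7 and 101 CPM with vehicle and 114, 88.3 and 99.7 CPM with APB-R3, with 0.15 (SE 0.12), or 0.054 without APB-R3 replicate 1.

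Rps15 and Rps19, both small-subunit genes whose groups did not overlap, had smaller differences. Rps15 had 574, 551 and 563 CPM with vehicle and 633, 632 and 576 CPM with APB-R3, for a log2 fold change of 0.13 (SE 0.083), or 0.10 without APB-R3 replicate 1. Rps19, the gene most often mutated in Diamond-Blackfan anaemia, had 957, 918 and 953 CPM with vehicle and 1101, 961 and 980.2 CPM with APB-R3, for a log2 fold change of 0.11 (SE 0.084), or 0.040 without APB-R3 replicate 1. In Rps19 the lowest APB-R3 library was above the highest vehicle library by less than the range of the vehicle libraries.

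The 6 members of paralogue type, whose symbols end in l or l1, were set beside their parent genes. As a group they had 2 of 6 positive log2 fold changes with a median of −0.030, and levels with a median of 98.2 CPM, under the 624 CPM over all members. Rps27l, a p53 target, had 235, 217 and 241 CPM with vehicle and 247, 280 and 254 CPM with APB-R3, with no overlap. Its log2 fold change was 0.17 (SE 0.091), or 0.21 without APB-R3 replicate 1, and that of Rps27 was 0.0013 (SE 0.099), or 0.089 without it. The difference between paralogue and parent was not tested.

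Rpl22l1, whose transcript is known to be repressed by its parent's protein, had 165, 179.6 and 169.6 CPM with vehicle and 151, 188 and 174 CPM with APB-R3. Its log2 fold change was −0.0033 (SE 0.099), and that of Rpl22, at 782 ± 57.0 and 824 ± 24.4 CPM (SD, n = 3 each), was 0.075 (SE 0.084). Without APB-R3 replicate 1 both were 0.077. Rpl36al had a log2 fold change of 0.16 (SE 0.15), which was −0.12 without APB-R3 replicate 1, and Rpl36a 0.052 (SE 0.098), which was −0.089. The direction for both thus rested on 1 library.

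Rpl7l1, whose protein acts in the nucleolus, had 111, 109.7 and 95.1 CPM with vehicle and 115, 104 and 85.3 CPM with APB-R3, for a log2 fold change of −0.057 (SE 0.11), beside 0.021 (SE 0.083) for Rpl7. Rps4l had 42.8, 48.9 and 43.8 CPM with vehicle and 52.9, 41.3 and 36.1 CPM with APB-R3, for a log2 fold change of −0.061 (SE 0.14), beside 0.021 (SE 0.094) for Rps4x. Without APB-R3 replicate 1 the values were −0.16 for Rpl7l1, −0.013 for Rpl7, −0.23 for Rps4l and −0.070 for Rps4x. For both paralogues the lowest library was APB-R3 replicate 3 and the highest APB-R3 replicate 1. Rpl6l, at a log2 fold change of −0.10 (SE 0.79, 95% interval −1.74 to 1.53), and 0.25 without APB-R3 replicate 1, was too thinly counted to show a direction.

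Fau and Rack1, genes of ribosomal proteins outside the symbol pattern, had differences of like size. Fau, which encodes a small-subunit protein fused to a ubiquitin-like protein, had 384, 417 and 389 CPM with vehicle and 492, 457 and 387 CPM with APB-R3, for a log2 fold change of 0.17 (SE 0.095). Rack1, the scaffold protein on the head of the small subunit, had 1154, 1277 and 1135 CPM with vehicle and 1272, 1198 and 1193 CPM with APB-R3, for a log2 fold change of 0.039 (SE 0.082). The groups overlapped in both genes, and without APB-R3 replicate 1 the values were 0.085 for Fau and 0.0064 for Rack1.

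Members with a matching pyrimidine run at an annotated start had a median log2 fold change of 0.092, with 29 of 33 positive. Those with an entry but no match had 0.062, with 25 of 28 positive. Without APB-R3 replicate 1 the medians were 0.039, with 26 of 33 positive, and −0.016, with 13 of 28 positive. A missing match does not show that an mRNA lacks the TOP motif, and the difference between these groups of members was not tested. Other transcripts regulated like them can be set beside these values. Of 16 genes of translation elongation factors and other TOP mRNAs, 9 were positive with a median of 0.025, and −0.014 without APB-R3 replicate 1. In this list the smallest p belonged to Eif4b, a helper of the initiation helicase, with 189.8, 204 and 183 CPM with vehicle and 219.6, 231 and 198 CPM with APB-R3 and a log2 fold change of 0.17 (SE 0.094).

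In the lists of genes that make and use ribosomes, 0 genes passed the test. The lists, each with the tested genes of the list, were chosen with earlier results known. Of 34 translation initiation factors, 17 were positive with a median of 0.00066, and 8 of 34 with a median of −0.032 without APB-R3 replicate 1. The smallest p belonged to Eif2b1 (log2 fold change 0.31, SE 0.18), a subunit of the eIF2B exchange factor. Of 59 ribosome biogenesis factors, 45 were positive with a median of 0.061, which was −0.021 with 24 of 59 positive without APB-R3 replicate 1. Wdr12, of the complex that processes large-subunit RNA, had the smallest p there, with 51.6, 60.3 and 50.1 CPM with vehicle, 47.8, 46.4 and 42.4 CPM with APB-R3 and a log2 fold change of −0.25 (SE 0.12).

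Of 21 genes of RNA polymerase I and ribosomal RNA transcription, 16 were positive with a median of 0.081, or 0.014 without APB-R3 replicate 1. Ttf1, which ends transcription by that polymerase, had lower values with APB-R3, with 60.5, 71.0 and 57.3 CPM with vehicle, 53.7, 51.3 and 49.5 CPM with APB-R3 and a log2 fold change of −0.29 (SE 0.12). Of 13 chaperones and assembly factors of ribosomal proteins, 11 were positive with a median of 0.16, or 0.055 without APB-R3 replicate 1. Grwd1, a chaperone of Rpl3, had 20.4, 22.8 and 17.9 CPM with vehicle, 30.5, 24.7 and 25.3 CPM with APB-R3 and a log2 fold change of 0.39 (SE 0.16). Neither gene passed, with an adjusted p of 0.9998 for each in edgeR's test.

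Host genes of small nucleolar RNAs, many of which carry a TOP start of their own, had the highest median of the lists. It was 0.19 with 13 of 16 positive, and 0.10 without APB-R3 replicate 1. Snhg1 had 57.6, 79.1 and 60.3 CPM with vehicle and 97.6, 91.1 and 63.6 CPM with APB-R3, for a log2 fold change of 0.36 (SE 0.14), with vehicle replicate 2 above APB-R3 replicate 3. With APB-R3 replicate 1 left out it was 0.23. Of 30 genes of mTORC1 and the control of TOP mRNAs, 13 were positive with a median of −0.0060. Larp1, which encodes the protein that binds TOP starts, had 275, 284 and 212 CPM with vehicle and 335, 286 and 248 CPM with APB-R3, for a log2 fold change of 0.17 (SE 0.12), which was 0.053 without APB-R3 replicate 1 or without vehicle replicate 3.

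Of 20 genes of ribosome stress and quality control, 13 were positive with a median of 0.022, or 0.0061 without APB-R3 replicate 1, and Map3k20, the kinase that senses stalled ribosomes, had 0.17 (SE 0.11). Proteins of the mitochondrial ribosome, which is built apart from the cytosolic one, had 56 of 78 positive with a median of 0.068, or 0.019 without APB-R3 replicate 1. Their smallest p was that of Mrpl1, with 29.7, 33.9 and 24.6 CPM with vehicle, 28.2, 22.6 and 20.2 CPM with APB-R3 and a log2 fold change of −0.32 (SE 0.16). Without APB-R3 replicate 1 the median was lower in 8 of these 9 lists, and in the mTORC1 list it was higher, at −0.00061.

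**Figure D5:**
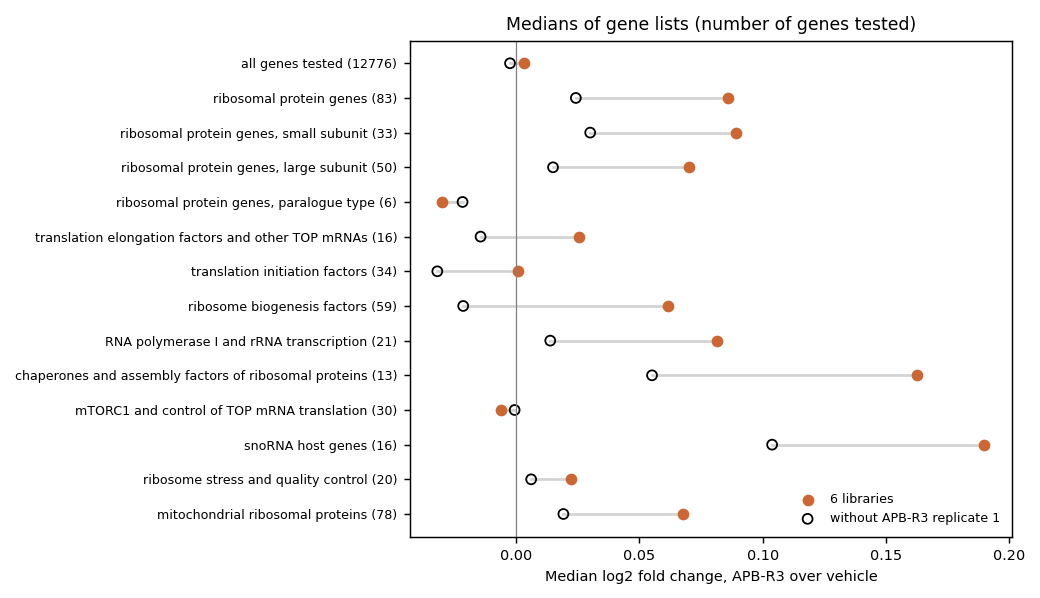
Median log2 fold change (APB-R3 over vehicle) of each gene list with the number of genes tested, over 6 libraries (filled) and without APB-R3 replicate 1 (open). The median of the 83 ribosomal protein genes moves from 0.086 to 0.024, and that of all genes tested stays near 0.

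Reads of ribosomal protein genes can be shared with near-identical copies elsewhere in the genome. The last 150 bases of 1 transcript per gene, from GENCODE M21 on GRCm38, were matched for 81 members to all other transcripts at 95% identity or more over at least 100 bases. For 43 members no copy was found, and 38 members had 265 copies in all, 245 of them pseudogenes, with up to 46 for Rps2. The median level was 693 CPM without and 584 CPM with a copy, and the median log2 fold change 0.091 and 0.054, or 0.016 and 0.026 without APB-R3 replicate 1. Rpl35a and Rpl13a had no copy, Rpl41 had 1, Rps12 had 21 and Rps27a 12. Across these 81 genes, which share their libraries and are not independent, Spearman's rho between copies and level was −0.075. How the counting treated reads with several matches is not given in the sources used here, so levels of genes with copies are uncertain.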

How the data were processed

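The authors deposited raw counts, whole numbers of reads per gene symbol with no normalization, for 3 vehicle and 3 APB-R3 libraries, per the file headers and values. Per the labels' protocols, 500 ng of Trizol-extracted RNA entered each Lexogen QuantSeq library. Per the submitters' processing notes, bcl2fastq 2.20.0.422, fastp, STAR and HTSeq were used with GRCm39. The sources used here do not give options, strand setting or annotation. Titles number replicates 1 to 3 and the file headers 2 to 4, and the titles were followed.

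The comparison used edgeR 4.0.16 in R 4.3.3: filterByExpr (minimum count 10, minimum total 15), TMM factors and the two-sided quasi-likelihood test with treatment as the only term, over 12776 of 20496 genes with a count, all 83 members among them. Benjamini-Hochberg p-values were called under 0.05. The standard error is the log2 fold change over the square root of F. CPM is on TMM-scaled totals, and log2 CPM of single libraries has a prior count of 2. The common biological coefficient of variation was 0.145. The fit was tested on simulated data, which held no outlying library like APB-R3 replicate 1. Alternatives used DESeq2 1.42.0 and limma 3.58.1 (voom), other scalings and filters, thinning, a replicate block and each library left out. Any 2 libraries differed beyond sampling noise (chi-square 5.54 to 13.6 per degree of freedom). The labels give no batch or date. Transcript ends were matched with BLAST 2.17.0.

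Members and lists were chosen with earlier results of these data known. Named by rule are the 8 members with the highest and the 4 with the lowest level, the 5 with the largest and the 5 with the smallest log2 fold change, the 5 with the smallest p, paralogues with their parents, the symbols next to the count minimum, the smallest p of each list, and Fau and Rack1. 1 gene that the rule names is not reported here. No protein sequence was used here.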

Additional observations from a re-analysis of the deposited data

How the results depend on the processing

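Ribosomal protein genes gave 0 calls under every alternative run. Over all genes, 0 were called (425 at an unadjusted p under 0.05), also with DESeq2 (376 unadjusted) and limma-voom (427), but 20 without the low-count filter, and 0 to 1 with each library left out (1 without vehicle replicate 3). The members' median log2 fold change was 0.081 to 0.091 under other scalings, filters, tests and thinning. It was 0.024 to 0.11 with each library left out, lowest without APB-R3 replicate 1, and 0.033 with 56 of 83 positive without both APB-R3 replicate 1 and vehicle replicate 2, a pair chosen after seeing the data. The labels do not say that equal replicate numbers share an animal or day, so the main fit had no replicate term. For the following correlations, each gene's group mean was subtracted from its log2 CPM, so they compare residuals and not whole profiles. The subtraction also makes the values of 1 vehicle library with the 3 APB-R3 libraries offset each other. Same-numbered libraries then correlated by 0.022 to 0.048 over all tested genes, each vehicle library best with its own number. Over the 3106 genes with a mean log2 CPM over 6 the correlation was 0.18 to 0.23, and the highest with another number −0.066 to −0.029. Over the members it was −0.57 to −0.15, and the highest with another number 0.40 to 0.42. Whether equal numbers share a source was not tested. With a replicate block, 0 genes were called, the median was 0.084 with 70 members positive, and 6 members in place of 3 had an unadjusted p under 0.05 (539 genes in place of 425).

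Of the log2 fold changes of 34 named genes under alternatives, 522 kept their direction and 21, in 9 genes, turned, and none passed. These 34 do not include most parents of the paralogues. Outside them, Rpl4, Rpl5, Rpl11, Rplp0, Rpl36a, Rpl7 and Rps4x also turned without APB-R3 replicate 1, with the values given above. With each library left out, log2 fold changes ran from −0.031 to 0.24 for Rps14, −0.028 to 0.091 for Rplp1, −0.087 to 0.21 for Rps24, −0.0016 to 0.15 for Rps12, −2.23 to 0.46 for Rpl6l, −0.23 to 0.057 for Rps4l, −0.16 to 0.054 for Rpl7l1, −0.077 to 0.077 for Rpl22l1 and −0.12 to 0.35 for Rpl36al. Without both libraries named above they were −0.071 for Rps24, 0.50 for Rpl6l, 0.12 for Rpl22l1 and −0.11 for Rpl36al. Rpl22l1 also turned with library size only (0.0025), with members and mitochondrial transcripts left out of the scaling (0.0014) and after thinning (0.0020). The fits that leave out libraries compare fewer samples. The cause of the other turns was not tested.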
